A study of Mus musculus with 3 samples.

Results

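Transcripts of 7 genes of coagulation and fibrinolysis (F3, F7, F10, F13a1, Plau, Plaur and Thbs1) were followed in the myeloid cells of 4T1 tumors. They were picked by gene symbol from the 32285 genes of the count tables. Counts were summed per library in gated cells. Of 16143 barcodes, 12472 cells were kept, of which 10395 entered a gate and 8716 of these were neutrophils, monocytes or macrophages. T cells served as the background, since they are not known for most of these transcripts.

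The cells came from primary tumors of 4T1-luc, a mouse mammary carcinoma line with a luciferase reporter, grown in the mammary fat pad of female BALB/c mice of 6 to 8 weeks and harvested on day 14. The vehicle group received DPBS and the p38i group received LY2228820, an inhibitor of the p38 MAP kinase, by daily gavage at 30 mg/kg for 10 days from day 4, and both carried p38a wildtype tumor cells. The p38KO group carried p38a-KO-H9, a line in which p38a had been inactivated with CRISPR-Cas9, and its treatment label is NA. Live CD45+ leukocytes were sorted after cold protease digestion, and each group was 1 library pooled from 3 mice. H9 is a single line, its knockout is in the tumor cells and not in the sorted host leukocytes, and the inhibitor could reach both. With 1 library per group there was no replicate check and no test between groups; every interval covers counting error only, and library, batch and group cannot be told apart.

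Tissue factor (F3) on a cell surface binds factor VII (F7), and the complex activates factor X (F10), which leads to thrombin and fibrin. Factor XIII (F13a1 encodes its A subunit) cross-links fibrin. Urokinase (Plau), held at the cell surface by its receptor uPAR (Plaur), turns plasminogen into plasmin, which dissolves fibrin. Thrombospondin-1 (Thbs1) is a matricellular glycoprotein of platelets, monocytes and other cells that binds CD36 and CD47 and activates latent TGF-beta. Monocytes and macrophages are known sources of tissue factor, factor XIII-A, urokinase and uPAR.

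The gates rested on raw counts. Neutrophils needed Csf3r or Cxcr2, monocytes Ly6c2 or Ccr2, macrophages at least 3 counts of C1qa and T cells Cd3e, with limits on the genes of the other lineages. In the vehicle, p38i and p38KO libraries the gates held 1989, 2367 and 1719 neutrophils, 505, 800 and 400 monocytes, 175, 189 and 572 macrophages, and 529, 632 and 518 T cells. Their identity was checked on lists of 8 markers, which include the genes that set the gates. For those genes (Csf3r, Cxcr2, Ly6c2, Ccr2, C1qa and Cd3e) the gates favored the result in advance, so only the others are a check. All 8 neutrophil, monocyte and T cell markers had their highest level in their own gate in every library, as did 7 of 8 macrophage markers (Cd68 did not). The monocyte list summed to only 1.70, 1.89 and 2.04 times its level in macrophages, the next gate. Median depth ran from 2142 to 2469 counts per neutrophil, 7694 to 8618 per monocyte, 13432 to 17769 per macrophage and 3998 to 5127 per T cell. Counts are of unique molecular identifiers (UMIs), tags that mark each captured transcript once. The kept cells held 20795195, 24210342 and 24374173 UMIs. Of all barcodes, vehicle and p38i shared 6, vehicle and p38KO 5, and p38i and p38KO 9. Among kept cells these were 5, 4 and 5. Levels are given as CPM, counts scaled to 1e+06 summed UMIs of a gate, with exact Poisson 95% intervals. Shares of cells were taken after each cell was thinned to 1500 UMIs, so that gates of unequal depth could be set side by side.

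F3 (ENSMUSG00000028128) lies on chromosome 3 and Plaur (ENSMUSG00000046223) on chromosome 7. They were the members with their highest level in neutrophils in all 3 libraries, so the 250 bases before their start sites are shown. Both sequences are from RefSeq (GRCm38.p6), read 5′ to 3′ on the plus strand, at chr3:121723287-121723536 and chr7:24462233-24462482. Capitals mark matches to TGANTCA, the AP-1 core, on either strand.
F3: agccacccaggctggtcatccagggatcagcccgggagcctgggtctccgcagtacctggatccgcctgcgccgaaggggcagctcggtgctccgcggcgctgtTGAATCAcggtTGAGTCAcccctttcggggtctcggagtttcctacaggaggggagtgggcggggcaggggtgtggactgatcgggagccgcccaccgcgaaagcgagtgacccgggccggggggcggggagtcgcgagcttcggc
Plaur: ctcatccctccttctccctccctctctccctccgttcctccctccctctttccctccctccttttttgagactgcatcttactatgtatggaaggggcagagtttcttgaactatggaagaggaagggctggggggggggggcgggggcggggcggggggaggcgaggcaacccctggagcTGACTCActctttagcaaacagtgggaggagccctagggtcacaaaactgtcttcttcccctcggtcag
Windows of 300 bases, with 50 bases after the start included, were available for 5 of the 7 members, F13a1 with 2 windows. The F3 window held TGANTCA at 146 and 135 bases before the start site, and the Plaur window held it at 69 bases. The windows of F7, F10 and F13a1 held no match, and 7.81% of all 32851 promoter windows held at least 1. Another 6 motifs were searched on both strands. GGGCGG (SP1, in 35.7% of all windows) occurred 3 times in F3 and 3 times in Plaur, and GCGNGGGCG (EGR, 5.55%) once in Plaur, where it overlaps 2 of the 3 GGGCGG matches. GAGGAAGT (PU.1, 3.20%) was in 1 F13a1 window, 15 bases after its start. TGACGTCA (CRE, 1.79%), TTGCNNCAA (C/EBP, 2.08%) and the NF-kB motif (1.63%) were in no member window. Each motif was searched as 1 letter pattern. The NF-kB result covers that pattern only, and sites with other letters, in F3 or any other member, were not searched for. The absence of an NF-kB site is therefore not shown. All matches given here are letter matches, and no binding was measured.

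F3, the initiator of coagulation, was at 153 CPM in vehicle neutrophils (95% interval 143 to 164), 138 in p38i (129 to 147) and 177 in p38KO (165 to 190). Monocytes held 15.8, 9.96 and 18.2 CPM, macrophages 3.48, 2.11 and 3.12, and T cells 0.887, 1.58 and 3.13. F3 was thus a neutrophil transcript in these gates, 9.72-, 13.9- and 9.75-fold above monocytes, the next gate. Macrophages and T cells could not be separated in the p38i and p38KO libraries, where the interval of their ratio included 1. After thinning, 12.3%, 13.3% and 13.7% of neutrophils had an F3 UMI (17.2%, 19.3% and 18.2% before it), against at most 0.475% of T cells. The counts were concentrated, since the 5% of neutrophils with the most F3 held 62.7%, 54.5% and 60.3% of them. Neutrophils held 75.1% to 80.5% of all F3 counts of the kept cells.

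Plaur, the urokinase receptor, followed the same order. It was at 973 CPM (948 to 999), 1089 (1064 to 1114) and 1022 (993 to 1053) in neutrophils, 478, 534 and 398 in monocytes, 137, 97.5 and 77.6 in macrophages, and 20.4, 36.4 and 9.39 in T cells. All neighbours in this order were separated beyond counting error in every library, with neutrophils 2.03-, 2.04- and 2.57-fold above monocytes. A Plaur UMI was found in 49.2%, 54.2% and 48.3% of thinned neutrophils, against 0.772% to 2.08% of T cells (60.7%, 65.0% and 56.7% of neutrophils before thinning). Neutrophils held 56.9% to 61.7% of its counts and monocytes 17.9% to 27.8%.

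The next 4 members had their highest level in monocytes. F7 (ENSMUSG00000031443) and F10 (ENSMUSG00000031444) are neighbours on chromosome 8, both on the plus strand, with 1498 bases between them (chr8:13026034-13035809 and chr8:13037308-13056676 in GENCODE M21, GRCm38). F10 was at 325 CPM (308 to 342), 412 (397 to 428) and 372 (351 to 393) in monocytes. Neutrophils held 125, 159 and 86.9 CPM, macrophages 55.4, 74.0 and 42.1, and T cells 12.7, 27.8 and 4.52. Monocytes stood 2.60-, 2.60- and 4.28-fold above neutrophils, and every neighbouring pair of gates was separated. A thinned F10 UMI was present in 32.3%, 34.4% and 32.0% of monocytes and in at most 1.42% of T cells (62.8%, 68.0% and 61.5% of monocytes before thinning).

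F7, which encodes the protease that tissue factor binds, was sparse. Monocytes held 18.8 CPM (15.1 to 23.3), 20.8 (17.5 to 24.6) and 25.3 (20.1 to 31.4), macrophages 8.99, 13.3 and 10.6, and neutrophils 5.65, 7.55 and 3.21. T cells held 7, 2 and 1 counts in all. The order monocytes, macrophages, neutrophils was the same in each library, but macrophages and neutrophils could not be separated in vehicle. Only 2.57%, 2.38% and 2.25% of thinned monocytes had a UMI, and 9.11%, 9% and 9% before thinning.

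F13a1 (ENSMUSG00000039109; chr13:36867178-37050244, minus strand), the fibrin-stabilizing transglutaminase, was at 365 CPM (348 to 383), 332 (318 to 346) and 383 (362 to 405) in monocytes. Macrophages held 90.5, 85.5 and 80.6 CPM, a 3.88- to 4.75-fold lower level. Neutrophils held 10.6, 19.0 and 10.5 CPM and T cells 8.58, 10.1 and 4.18, so neutrophils were near the background, and in vehicle the interval of their ratio included 1. A thinned UMI was present in 36.4%, 32.2% and 30.0% of monocytes against 0.189% to 0.475% of T cells (62.4%, 64.4% and 57.5% of monocytes before thinning).

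Thbs1 (ENSMUSG00000040152; chr2:118111876-118127133, plus strand) was the most restricted to monocytes, which held 87.1%, 82.3% and 72.0% of its counts. It was at 636 CPM (613 to 659) in vehicle monocytes, 349 (335 to 364) in p38i and 310 (291 to 330) in p38KO. Vehicle thus lay above both other libraries, whose levels were 0.549 and 0.488 times its own. Neutrophils held 136, 135 and 42 counts, macrophages 9.57, 17.8 and 11.9 CPM, and T cells 5.03, 6.01 and 6.96 CPM. Below monocytes the order of the gates changed between libraries and several neighbours were not separated. Thbs1 was uneven among monocytes: the 5% with the most counts held 47.0%, 45.0% and 53.1% of them, and the mean in a cell with a UMI was 12.6, 7.46 and 7.93 counts. F13a1 and Thbs1 overlap annotated genes on the opposite strand (Gm49144 and Gm30489, and Gm29233). Whether the counting used strand is not given in the sources used here.

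Plau (ENSMUSG00000021822; chr14:20836660-20843385, plus strand), urokinase itself, was the macrophage member. It was at 154 CPM (141 to 167), 153 (140 to 166) and 148 (140 to 156) in macrophages, which lay within each other's intervals. Monocytes held 53.4, 39.2 and 31.1 CPM, neutrophils 13.2, 10.8 and 25.0, and T cells 0.591, 3.16 and 2.78. Macrophages were 2.88-, 3.89- and 4.75-fold above monocytes, and monocytes and neutrophils were not separated in p38KO. The urokinase transcript and that of its receptor therefore had their highest levels in different gates, macrophages and neutrophils. After thinning, 14.9%, 18.5% and 17.7% of macrophages had a Plau UMI, against at most 0.316% of T cells (58.3%, 63.0% and 58.4% of macrophages before thinning).

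**Figure D1:**
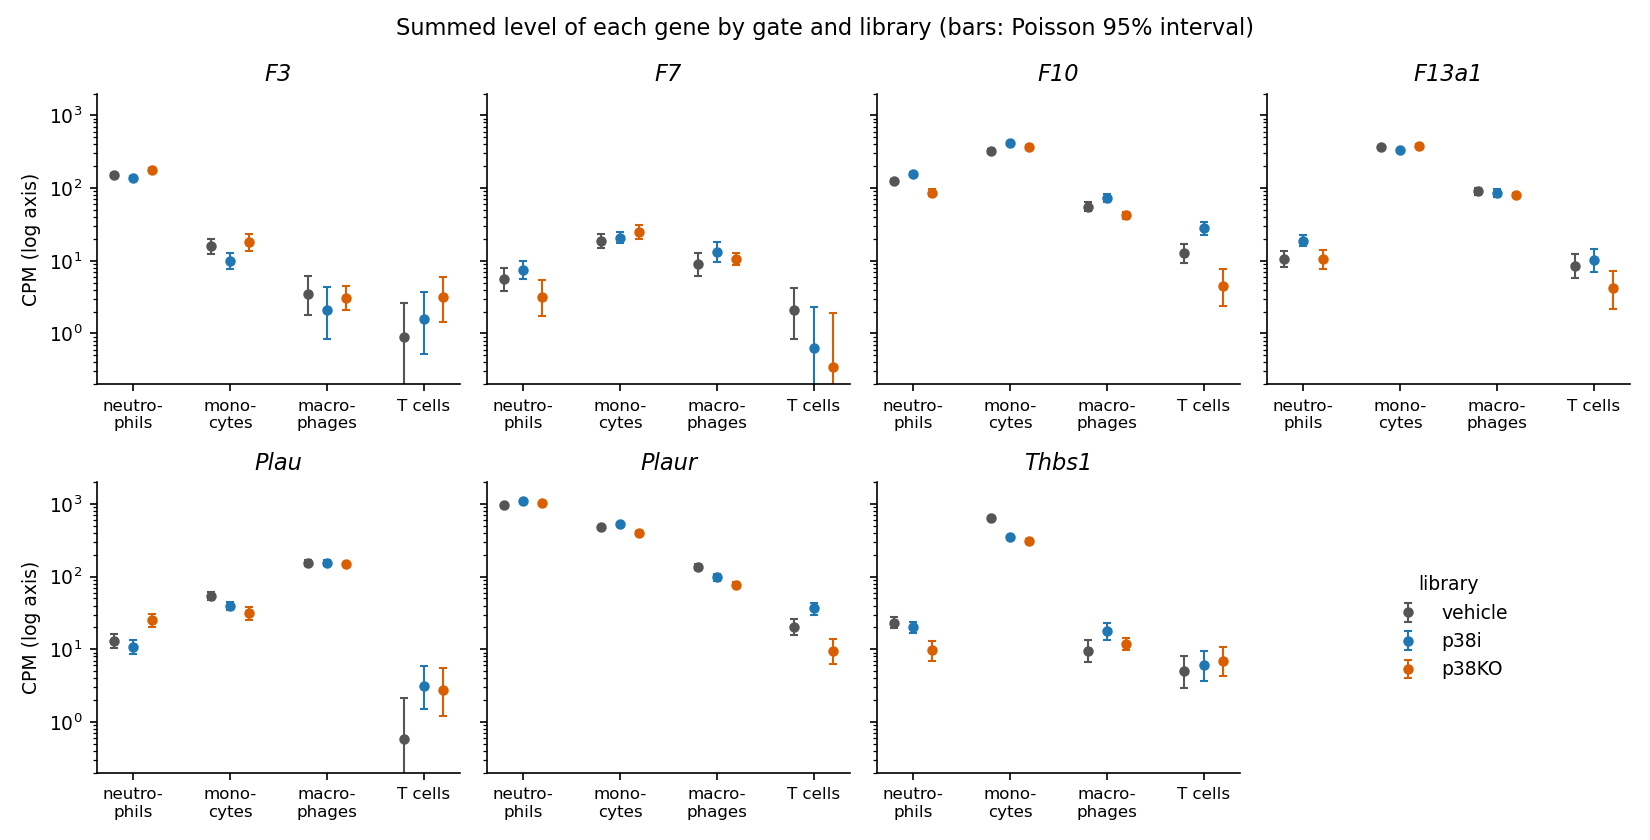
CPM of each gene on a log axis in the neutrophil, monocyte, macrophage and T cell gates, with 1 point per library and its Poisson 95% interval. F3 and Plaur are highest in neutrophils, F7, F10, F13a1 and Thbs1 in monocytes, and Plau in macrophages, and in monocytes the vehicle point lies above both other libraries for Thbs1 (636 CPM) and below them for F10 (325 CPM).

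**Figure D2:**
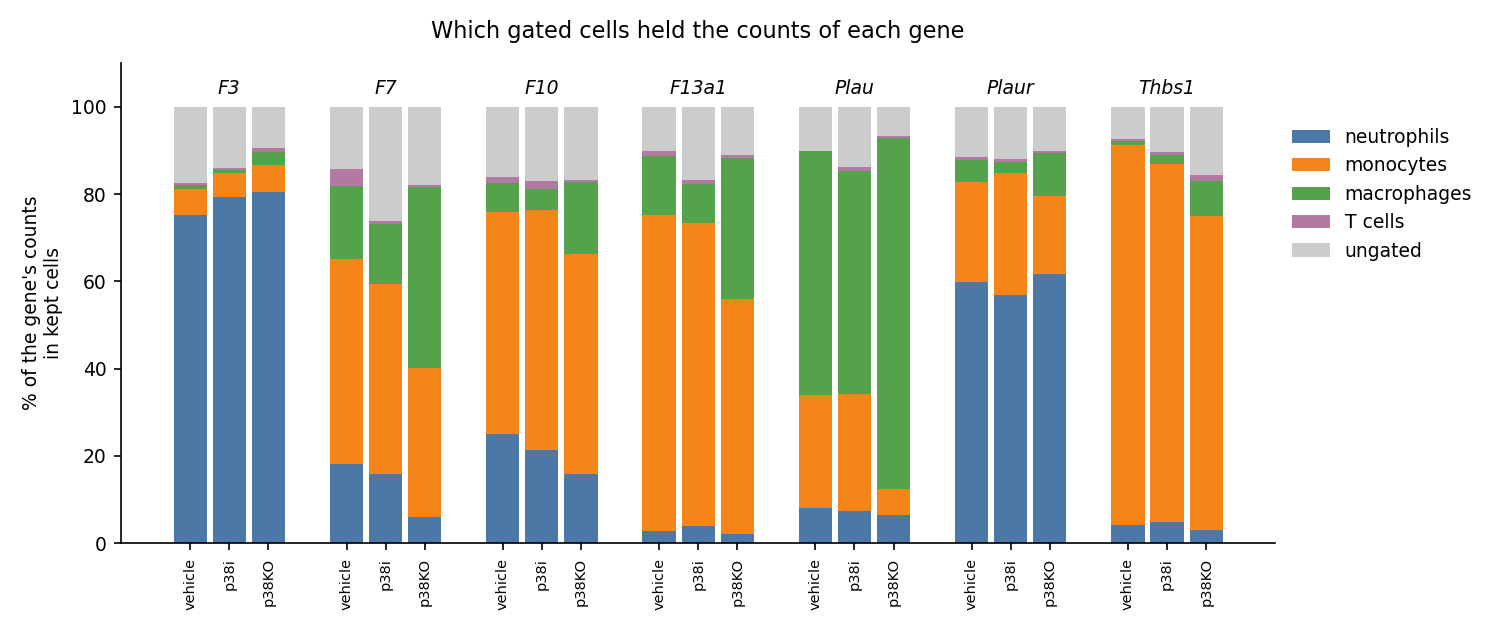
Share of the counts of each gene in kept cells (y axis, percent) that came from each gate, 1 bar per library. Neutrophils hold most F3 and Plaur, monocytes most Thbs1 and F13a1, and macrophages most Plau. The macrophage share of every gene is largest in p38KO, the library with 572 macrophages.

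The cells outside all gates held 9.38% to 17.5% of F3 counts and 6.62% to 26.2% of the counts of the other members. Their F10 level was 131, 201 and 87.3 CPM and their Plaur level 305, 359 and 159 CPM, both below the highest gate of the gene in the same library. Their F3 level was 58.7, 38.7 and 19.6 CPM, also below the neutrophil gate. The neutrophil list summed to 24059, 28693 and 9700 CPM in these cells, so neutrophil transcripts were present outside the gate and unequally by library.

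Cells of other types were looked for among the gates. Of the 10 platelet markers, Gp9, Gp1bb and Tubb1 were at 0 in all 4 gates, and Gp1ba had 1 count, in p38KO macrophages. Pf4, which monocytes and macrophages also express, made up most of that list in the myeloid gates. The fibroblast list summed to 1.04 to 2.98 CPM in the myeloid gates. The 4T1 list of 8 genes summed to 11.6 to 66.5 CPM in them, except in p38KO neutrophils with 193 CPM, where Krt14 had 516 counts and Krt5 225. The endothelial list of 6 genes summed to 21.2 to 89.7 CPM in them. Cells with a 4T1 marker UMI, and monocytes with a platelet marker UMI, were left out in alternatives given further on. The part of fibroblasts, of endothelial cells, and of platelets outside the monocyte gate was not tested.

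Within the neutrophil gate, cells with and without a Cxcr2 UMI differed in the members. Cxcr2 is the receptor for CXC chemokines on mature neutrophils. It is also a gene of the gate, so cells without it entered through Csf3r or by Cxcr2 UMIs lost in thinning. F3 was at 121, 123 and 160 CPM with Cxcr2 and at 219, 167 and 224 without it. F10 was at 86.1, 119 and 55.5 CPM with Cxcr2 and 203, 235 and 170 without. Both were lower in the Cxcr2 cells of all 3 libraries, with log2 ratios of -0.86, -0.44 and -0.49 for F3 and -1.24, -0.98 and -1.61 for F10 and intervals that left out 0. Plaur differed less, with 881, 998 and 1010 CPM against 1158, 1264 and 1056, and in p38KO the interval of its log2 ratio included 0 (-0.16 to 0.03). F13a1, a monocyte transcript here, was at 4.87, 14.1 and 7.57 CPM with Cxcr2 and 22.2, 28.3 and 18.4 without it. Thbs1, another one, was at 13.8, 7.63 and 9.78 CPM with Cxcr2 and 42.3, 44.0 and 9.21 without. F13a1 and Thbs1 were thus also lower with Cxcr2, except Thbs1 in p38KO, where the interval of the log2 ratio included 0 (-0.94 to 1.23). F7, sparse in neutrophils, had an interval that included 0 in p38i (-1.29 to 0.44).

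Plaur was found more often in neutrophils with an F3 UMI than in those without it. Among thinned neutrophils with an F3 UMI, 73.9% (181 of 245), 78.7% (248 of 315) and 76.2% (179 of 235) had a Plaur UMI. Among those without F3 the shares were 45.7%, 50.5% and 43.9%, and the intervals did not overlap in any library. F10 showed no such relation to F3: 10.2%, 14.9% and 9.36% of F3 neutrophils had an F10 UMI against 10.9%, 13% and 6.74% of the others, with overlapping intervals. With respect to Plaur, F10 was the less frequent in the cells that had Plaur, at 9.82%, 11% and 5.05% against 11.8%, 15.9% and 9.01%, and the intervals were apart in p38i and p38KO. All cells were thinned to the same number of UMIs, and these are cells of 1 library each, not replicates.

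Monocytes carried more members per cell. At least 2 of the 7 were found in 49.7%, 44.4% and 35.8% of thinned monocytes, against 15.3%, 17.6% and 15.5% of neutrophils, 8.57%, 11.6% and 6.29% of macrophages, and at most 0.949% of T cells. Monocytes with a Thbs1 UMI had F13a1 in 48.7%, 43.9% and 47.0% of cells, against 31.3%, 28.5% and 26.6% of monocytes without Thbs1. They had Plaur in 55.3%, 55.6% and 56.1%, against 39.2%, 37.9% and 27.8%. The Thbs1 monocytes were thus richer in both in all 3 libraries, with intervals apart each time.

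**Figure D3:**
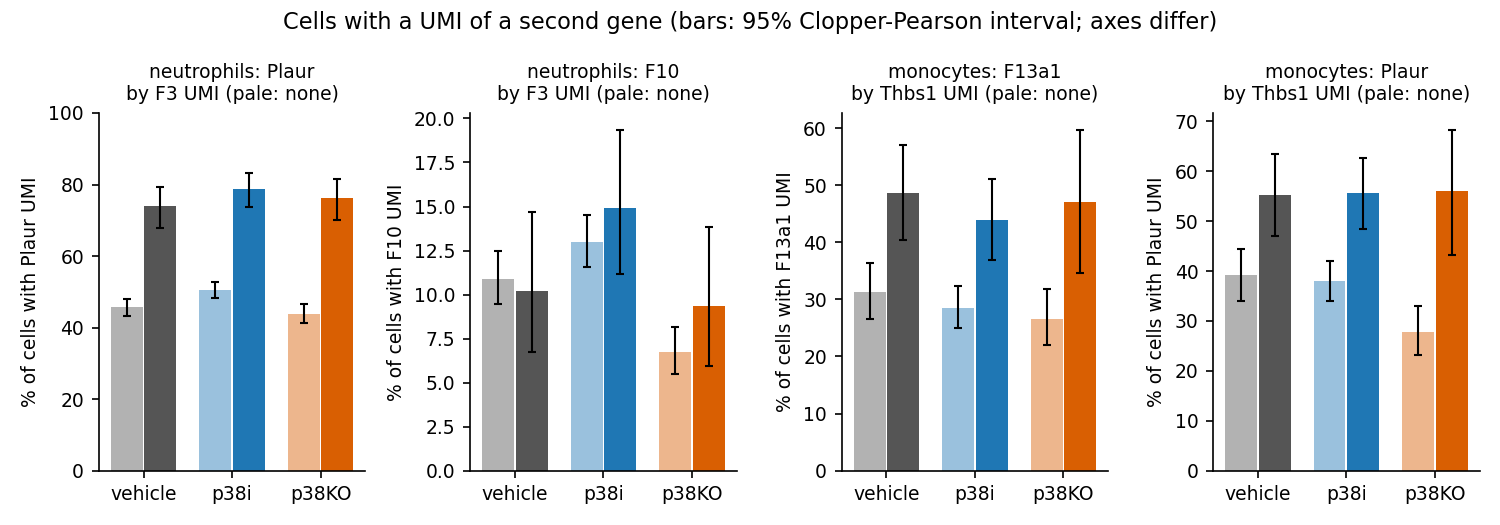
Percent of thinned cells with a UMI of a gene among cells without (pale) and with (full colour) a UMI of another, with Clopper-Pearson 95% intervals, by library; the y axes differ. The Plaur share of neutrophils is higher with F3 in each library and the F10 share is not, while F13a1 and Plaur are both more frequent in monocytes with Thbs1.

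Monocytes were also split by Arg1, the arginase of suppressive myeloid cells, which gave 135, 198 and 132 cells with a UMI after thinning and 370, 602 and 268 without. Both coagulation proteases were higher with Arg1. F7 was at 51.6, 49.6 and 58.5 CPM with Arg1 and at 6.08, 10.3 and 7.56 without it, an 8.48-, 4.80- and 7.73-fold difference. F10 was at 551, 685 and 612 CPM against 236, 313 and 243, a 2.33-, 2.19- and 2.52-fold difference. F13a1 went the same way by 1.60-, 1.42- and 1.5-fold. Thbs1 went the other way: its log2 ratio of cells with Arg1 to those without was -1.51 in vehicle, -0.16 in p38i and -0.72 in p38KO.

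**Figure D4:**
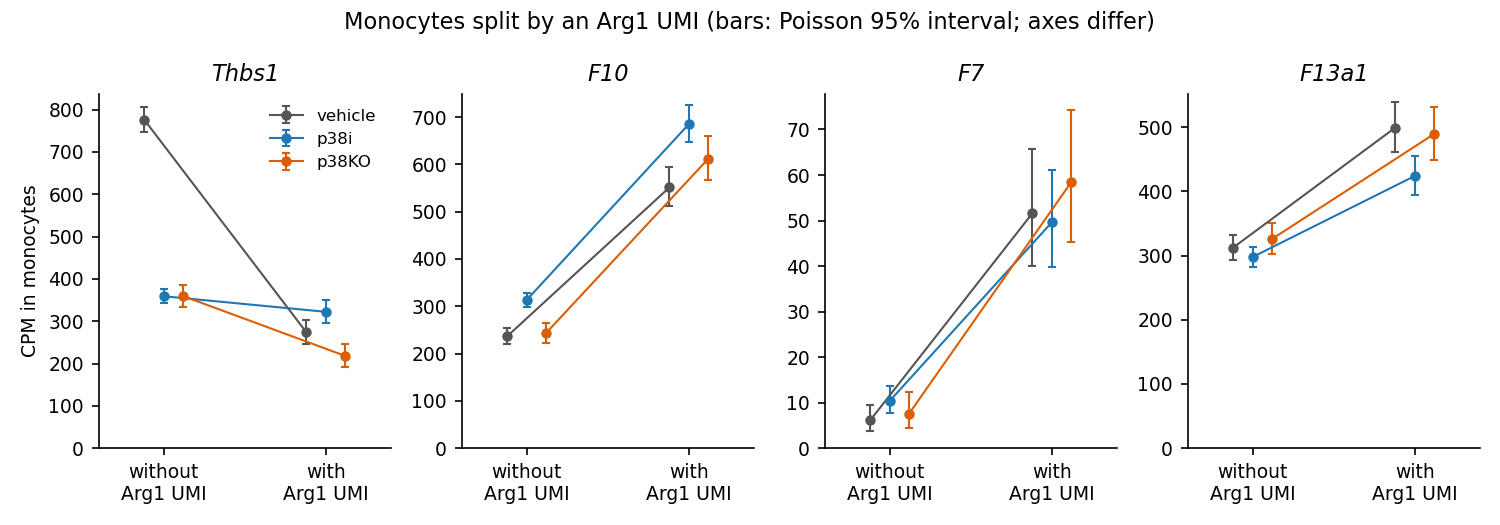
CPM in monocytes without and with an Arg1 UMI for Thbs1, F10, F7 and F13a1, with Poisson 95% intervals; each panel has its own y axis from 0. F10, F7 and F13a1 are higher with Arg1 in all libraries, and the vehicle level of Thbs1 stands apart at 777 CPM only in monocytes without Arg1.

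In macrophages, those with a Mki67 or Top2a UMI, genes of dividing cells, numbered 14, 14 and 67. Their Plaur level was 47.5, 55.1 and 37.5 CPM against 149, 102 and 85.9 in the rest, lower in each library with an interval that excluded 0. Plau did not go that way, with 202, 190 and 168 CPM in the dividing cells against 147, 148 and 144.

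The next question was whether the libraries differed within a gate. A gene was called where its log2 ratio to vehicle was at least 0.5 either way, with an exact 95% interval that left out 0 and at least 20 counts in both libraries together. The p38i and p38KO ratios share the vehicle library, so an error in that library enters both. In neutrophils the median gene itself lay 0.12 (p38i) and 0.13 (p38KO) above vehicle on the log2 scale.

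In the p38i library, 1 of 7 members was called in neutrophils (12.8% of all genes), 2 of 7 in monocytes (7.4%) and 1 of the 6 with enough counts in macrophages (7.24%). The median log2 ratio of the members tested was 0.16 in neutrophils, -0.14 in monocytes and 0.20 in macrophages, beside 0.12, 0.04 and -0.01 over all genes. In p38KO the counts were 3 of 7 in neutrophils (13.6% of all genes), 2 of 7 in monocytes (8.9%) and 1 of 7 in macrophages (12.4%). The members' medians were -0.01, 0.07 and -0.16, beside 0.13, 0.08 and 0.06. Most members were thus not called in most gates, and 1 call among 6 or 7 members is the smallest count above 0, so nothing is read from the counts of 1. In the T cells that served as the background only 4 members had enough counts. Of these, 2 were called in p38i (8.53% of all genes), F10 and Plaur, both higher, and 3 in p38KO (11.9%), F10 (-1.49), F13a1 (-1.04) and Plaur (-1.12), all lower. The F10 counts of T cells came from only 12 cells in vehicle, 16 in p38i and 6 in p38KO.

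Thbs1 in monocytes was the member called in the same gate of both libraries. In p38i its log2 ratio to vehicle was -0.86 (-0.94 to -0.79), and the p38KO ratio was -1.04 (-1.14 to -0.93). The share of thinned monocytes with a UMI was 29.7% (25.7 to 33.9) in vehicle, 24.5% (21.6 to 27.6) in p38i and 16.5% (13 to 20.5) in p38KO, with T cells at 0.945% or less. Before thinning the shares were 45.5%, 39.4% and 31.8%. The p38KO share thus lay below vehicle with intervals apart, while the p38i and vehicle intervals overlapped. The mean in a cell with a UMI, taken before thinning, was 12.6, 7.46 and 7.93 counts. Median depth also differed, at 8618, 7694 and 7985 UMIs per monocyte. In monocytes without Arg1 it was at 777 (747 to 807), 359 (342 to 376) and 360 (334 to 386) CPM, a log2 ratio of -1.11 in both comparisons. In those with Arg1 it was at 274, 322 and 218 CPM, with log2 ratios of 0.24 (0.04 to 0.43) and -0.33 (-0.57 to -0.09). Both calls held with the stricter gates, with thinning, without the cells over 2 times the median depth and without the top cell of each library (p38i from -0.53 to -0.92, p38KO from -0.76 to -1.11). The libraries also differed in quality measures, with a median mitochondrial share of 0.671%, 0.968% and 2.10% in kept cells and 83.3%, 75.6% and 74.0% of barcodes kept. With no cell filter the Thbs1 log2 ratios were -0.86 and -1.03, and the part of the mitochondrial share was not tested.

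Platelets are a source of Thbs1, and the platelet list moved with it in monocytes, at 337, 154 and 161 CPM, of which Pf4 was 316, 145 and 155. Of its 10 genes, Gp9, Gp1ba, Gp1bb and Tubb1 were at 0 there. The genes at 0 numbered 5 in vehicle, 5 in p38i and 4 in p38KO, and the others had counts. Without the 73, 92 and 39 monocytes that had a UMI of any platelet marker, Thbs1 was at 675, 374 and 326 CPM, with log2 ratios of -0.85 and -1.05. This omission was chosen after the data were seen.

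In macrophages Thbs1 was low, with 33, 59 and 111 counts, and its p38i log2 ratio was 0.90 (0.26 to 1.56), opposite to monocytes. It was no longer called after thinning or without the deepest cells (0.63). In neutrophils its p38KO log2 ratio was -1.27 (-1.81 to -0.77), but a single vehicle cell held 50 of 136 counts. Without the top cell of each library it was -0.80, with stricter gates -0.18 and not called, and without the cells over 2 times the median depth 0.31, in the other direction. The neutrophil value of Thbs1 thus changed with the cells that were counted.

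For urokinase, p38KO neutrophils had 25.0 CPM (20.5 to 30.1) against 13.2 (10.4 to 16.5) in vehicle, a log2 ratio of 0.92 (0.49 to 1.36). The thinned share of neutrophils with a UMI was 3.32% against 1.66%, above the T cells at 0.193% and at 0%. Tumor cells can express urokinase, and the 4T1 list was highest in this gate and library; without cells that had a 4T1 marker UMI the log2 ratio was 0.90. Plau was highest in macrophages, and the macrophage list of 8 genes summed to 454, 535 and 817 CPM in the neutrophil gates, with C1qa at 32.7 CPM in vehicle and 87.8 in p38KO. The part of macrophage transcripts in this value was not tested. In p38KO monocytes Plau went the other way, with 31.1 CPM (25.3 to 37.8) against 53.4 (46.9 to 60.6) and a log2 ratio of -0.78 (-1.13 to -0.44). That call was lost with the stricter gates (-0.47) and without the monocytes that had a platelet marker UMI (-0.45). In macrophages, where Plau was highest, p38i had a log2 ratio of -0.01 (-0.19 to 0.17) and p38KO one of -0.06 (-0.20 to 0.09).

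Plaur in neutrophils had log2 ratios of 0.16 (0.11 to 0.21) and 0.07 (0.01 to 0.13). In p38KO macrophages its log2 ratio was -0.82 (-0.99 to -0.65), which was called. The p38i value of -0.49 (-0.69 to -0.28) lay just short of the limit. Plaur was highest in neutrophils, and the neutrophil list of 8 genes summed to 3198, 1690.3 and 2261 CPM in the macrophage gates, lower in both libraries than in vehicle. T cells had Plaur at 20.4, 36.4 and 9.39 CPM, lower than vehicle in p38KO and higher in p38i. The part of either in the macrophage values was not tested. Dividing macrophages, which held less Plaur, were 8.00%, 7.41% and 11.7% of the gate. Among the others the log2 ratios were -0.54 and -0.79.

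The coagulation proteases were not called in monocytes. F10 had log2 ratios of 0.35 (0.25 to 0.44) and 0.20 (0.08 to 0.31), both intervals wholly above vehicle. F7 had 0.14 (-0.25 to 0.55) and 0.42 (-0.03 to 0.88), and its wide intervals leave larger differences open. In neutrophils F10 had 0.34 (0.21 to 0.48) in p38i and -0.52 (-0.71 to -0.34) in p38KO, and the latter was called. It was not called without the cells that had a 4T1 marker UMI (-0.47). T cells, the background, moved the same way, from 12.7 CPM to 27.8 and 4.52, but with counts in few cells. In p38i T cells 1 cell held 34 of the 88 F10 counts. The part of the background in the neutrophil values was not tested. F13a1 in p38i neutrophils had a log2 ratio of 0.84 (0.39 to 1.30) from 62 and 128 counts, close to the background level. The monocyte list of 8 genes summed to 1349.7 CPM in vehicle neutrophils and 1482 in p38i, and within it Ms4a6c was at 24.8 and 56.0 CPM, Ccr2 at 16.4 and 31.0, Chil3 at 11.6 and 27.4 and Vcan at 2.23 and 6.22. The part of monocyte transcripts in this value was not tested. It was not called with stricter gates (0.56), after thinning (0.60) or without the deepest cells (0.21). In monocytes F13a1 differed by -0.14 (-0.23 to -0.05) and 0.07 (-0.04 to 0.18).

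Tissue factor in neutrophils differed by -0.15 (-0.28 to -0.02) in p38i and 0.21 (0.07 to 0.35) in p38KO. In the cells outside all gates F3 was lower in both libraries than in vehicle, at 58.7, 38.7 and 19.6 CPM. The part of neutrophils left out of the gate in these differences was not tested. In p38i monocytes F3 was called lower (-0.66, -1.16 to -0.16) from 72 and 67 counts, a call that did not hold with stricter gates, after thinning or without the deepest cells.

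Set directly against p38i, 5 of 7 members were called in p38KO neutrophils (18.6% of all genes): F7, F10, F13a1 and Thbs1 lower and Plau higher. Plau (1.21) and F10 (-0.87) kept their calls with stricter gates, after thinning and without the deepest cells. F13a1 (-0.85) and Thbs1 (-1.05) were not called with stricter gates or after thinning, and without the deepest cells they were called in the other direction (1.01 and 0.99). F7 (-1.23), from 14 and 51 counts, was not called after thinning or with no cell filter. T cells had 3 of 4 members called lower in the same comparison (9.03%), F10 (-2.62), F13a1 (-1.28) and Plaur (-1.95).

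In monocytes 1 of 7 members was called against p38i (9.03%), F3 higher with a log2 ratio of 0.87 (0.34 to 1.39) from 59 and 67 counts. A single p38KO cell held 19 of the 59, and without the top cell of each library the ratio was 0.49 (-0.13 to 1.09) and not called. In macrophages 2 of 7 were called (13.1%), both lower. F10 (-0.81) kept its call in the alternatives other than a limit of 1, and Thbs1 (-0.58) was not called without the top cells (-0.47), without the deepest cells (-0.51) or after thinning. F10 was also lower in p38KO than in p38i in T cells (-2.62) and in the cells outside all gates (87.3 against 201 CPM). The macrophage gates themselves held 189 cells in p38i and 572 in p38KO. The part of the background or of the make-up of the gate in the macrophage ratio was not tested.

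**Figure D5:**
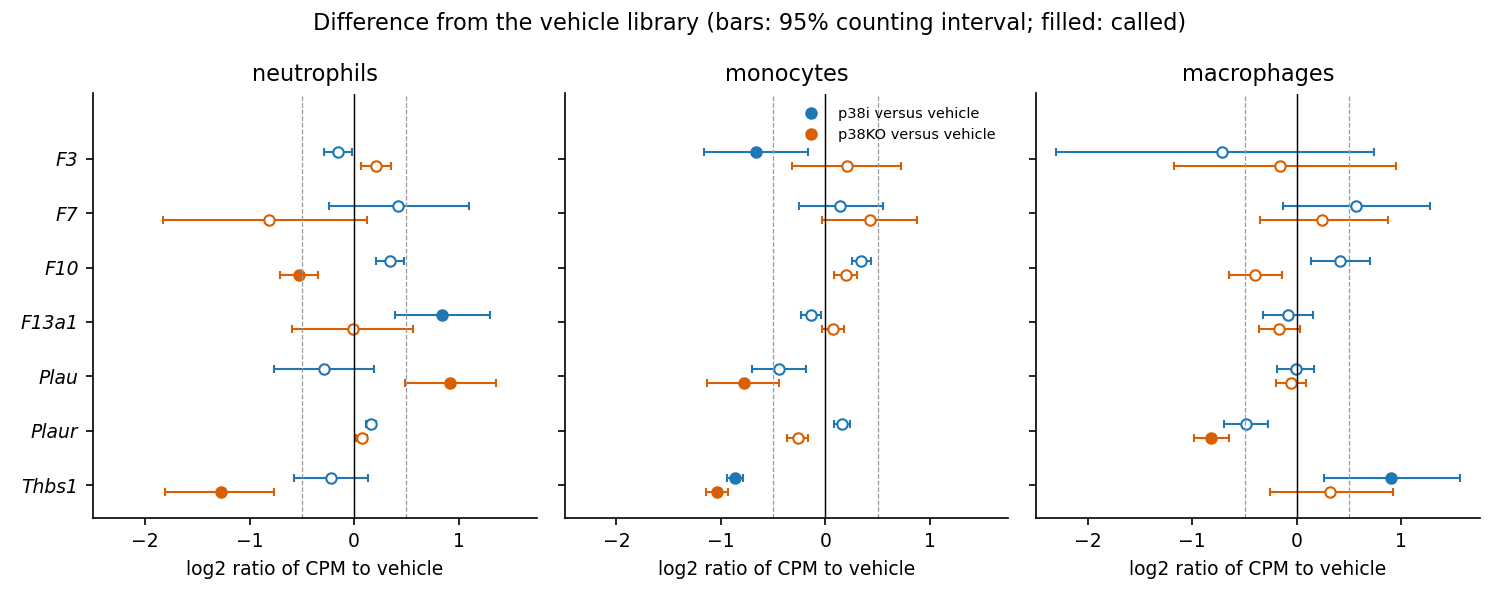
Log2 ratio of CPM to vehicle for each gene in neutrophils, monocytes and macrophages, with 95% counting intervals; filled points were called and dashed lines mark 0.5 either way. Thbs1 in monocytes is the only gene called in both libraries, at -0.86 and -1.04, while Plaur in neutrophils and Plau in macrophages sit near 0.

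The other genes of these pathways came from a list of 53. Of these, 30 had at least 100 counts over the gated cells and 7 had none, among them the fibrinogen chains Fga, Fgb and Fgg, plasminogen (Plg) and Vtn. The liver makes the circulating forms of most of them. In p38i, 8 were called higher and 1 lower of the 22 tested in neutrophils (12.8% of all genes), 2 and 2 of 28 in monocytes (7.4%), and 0 and 5 of 25 in macrophages (7.24%). In p38KO, 6 and 1 of 27 were called in neutrophils (13.6%), 1 and 3 of 26 in monocytes (8.9%), and 2 and 8 of 27 in macrophages (12.4%). In each of these gates and libraries the share called was larger than over all genes. Of the myeloid gates it was smallest in monocytes, with 4 genes in each library. In the T cells that served as the background, 2 were called higher and 0 lower of 22 in p38i (8.53% of all genes). In p38KO T cells these were 2 and 3 of 20 (11.9%). The T cell shares were also larger than over all genes, so such an excess was not limited to the myeloid gates. The list was chosen with earlier results of these data known.

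Cd36, a thrombospondin receptor, was called lower in monocytes and macrophages of both libraries: 25.2, 14.4 and 13.2 CPM in monocytes (-0.80 and -0.93) and 49.6, 32.3 and 19.8 CPM in macrophages, where p38KO had -1.33 and p38i -0.62. Procr, the protein C receptor, was lower in macrophages (19.1, 5.44 and 7.20 CPM, log2 ratios -1.82 and -1.41) and higher in monocytes (16, 54 and 26 counts, 1.2 and 1.19). Thbd, thrombomodulin, had 23, 5 and 24 counts in macrophages, with a p38i log2 ratio of -2.14. The macrophage gates held 3447623, 3311193 and 9308845 UMIs, so the p38KO level of Thbd per UMI also lay below vehicle. Vwf, von Willebrand factor, had a p38KO macrophage log2 ratio of -2.13 (3.12 against 13.6 CPM), and the thrombin receptor F2r one of 2.12 from 4 and 47 counts. F2rl2, a receptor of the same family, was at 9.64, 15.5 and 5.24 CPM in monocytes, called higher in p38i (0.68) and lower in p38KO (-0.88). The alternatives in this text cover the members, and none is given for the genes of this list.

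In neutrophils the genes with the largest called ratios had few counts. Serpinb2, a urokinase inhibitor, had 4, 22 and 28 counts, with log2 ratios of 2.25 and 3.23. F2r had 6, 22 and 21 counts (1.67 and 2.23), Pros1, protein S, had 7, 24 and 17 (1.57 and 1.70), and Lman1, a cargo receptor for factors V and VIII, had 9 and 33 in vehicle and p38i (1.67). S100a10, part of a plasminogen receptor, had more counts, at 35.1, 81.0 and 51.1 CPM (1.21 and 0.54). Over all 4 gates and the 3 libraries it had 35142 counts. In these neutrophil gates the monocyte list summed to 1350, 1482 and 1401 CPM and the macrophage list to 454, 535 and 817 CPM. The part of transcripts of other cells in these neutrophil values was not tested, for S100a10 or the sparse genes.

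Genes with the most similar pattern to each member over 12 values (4 gates in 3 libraries) were ranked among 10972 genes by Pearson's r of log2(CPM + 10). This r compares the pattern and not the height of the level. These values share their libraries and mainly reflect the gates. The nearest to F3 were Gm14010, Rabgef1 and Usp32 (r = 0.996, 0.995 and 0.995), and to Plaur were Bst1, Cebpb and Cdkn1a (0.996, 0.992 and 0.989). The nearest to F7 were Akap7, Capzb and Tbc1d9, to F10 Esd, Arrb1 and Mxi1, to F13a1 Gab1, Aifm2 and Rnf217, to Plau Plod1, Hspa5 and Tpp1, and to Thbs1 Rbpms, Apaf1 and Spink2. Among the members themselves, r ran from -0.24 (F3 and F13a1) to 0.96 (F7 and F13a1). It was 0.83 between F3 and Plaur, 0.83 between F10 and Plaur, and 0.18 between Plau and its receptor Plaur.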

How the data were processed

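The authors made the libraries with a 10x Genomics 3′ protocol and made the tables with Cell Ranger, for which the headers give 6.0.0; the submitters' processing notes name mm10, R 4.2.1 and Seurat 5. What they deposited are raw UMI counts, 1 value for each gene in a barcode, without normalization. The study's filter was applied: under 1500 UMIs, under 300 genes or over 20% mitochondrial UMIs removed a cell. Gates used raw counts, in this order. T cells had Cd3e, under 3 C1qa and no Csf3r or Cxcr2. Macrophages had at least 3 C1qa and no Cd3e. Of the rest with no Cd3e, Ncr1 or Flt3, under 2 Cd79a and under 3 Cpa3, neutrophils had Csf3r plus Cxcr2 of at least 1 and above Ly6c2 plus Ccr2, and monocytes Ly6c2 plus Ccr2 of at least 2 and above Csf3r plus Cxcr2. No doublets were removed; leaving out cells over 2 times the median depth of their gate was an alternative. Log2 ratios carry exact conditional binomial 95% intervals, shares exact Clopper-Pearson 95% intervals, and 0.5 stands in for a count of 0 in a ratio. The ratio and the call were tested on simulated data with Poisson counting error only. That simulation left out the clustering of counts in single cells, so it cannot show how the intervals behave under it. Thinning used random seed 1.

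The members and lists were chosen with earlier results of these data known. Named were the 7 members, up to 3 called pathway genes with the largest change per gate and comparison, with S100a10 in neutrophils and the other comparison or gate of a named gene added after their values were seen, and the 3 genes nearest to each member (at least 100 counts). A pathway gene that this rule names is not reported here. Alternatives were no cell filter, stricter gates, thinned cells, median-ratio scaling, a mean of CPM per cell, a log2 limit of 1 and, added after seeing the data, leaving out the top cell, cells with a 4T1 marker or monocytes with a platelet marker. The tools were Python 3.11.15, numpy 2.4.6, scipy 1.17.1, pandas 2.3.3 and matplotlib 3.10.9.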

Additional observations from a re-analysis of the deposited data

Results flagged for a closer look

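A pair of genes was called in opposite directions in different gates of the same library, and the difference between the gates was not tested. Plau in p38KO had a log2 ratio to vehicle of 0.92 in neutrophils and -0.78 in monocytes. The monocyte call was lost with the stricter gates and without the monocytes that had a platelet marker UMI. Thbs1 in p38i had a log2 ratio of -0.86 in monocytes and 0.90 in macrophages, the latter from 33 counts in vehicle and 59 in p38i. The macrophage call was lost after thinning and without the deepest cells.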

How the results depend on the processing

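Of 342 repeats of 41 log2 ratios under the alternatives, 298 kept their direction and their side of the limits or stayed within their interval. The one that reversed was Thbs1 in p38KO neutrophils, at 0.31 without cells over 2 times the median depth; the cause was not tested. A mean of CPM per cell moved 12 of the 41 ratios, the most of any alternative, among them Thbs1 in monocytes, at -0.71 in p38i and -0.79 in p38KO. The direct ratios of p38KO to p38i are not among the 41. With a log2 limit of 1 the number of members called was 0 in p38i neutrophils, monocytes and macrophages, 1 in p38KO neutrophils, 1 in p38KO monocytes and 0 in p38KO macrophages. After thinning it was 1 in p38i monocytes and 2 in p38KO macrophages, and without cells over 2 times the median depth also 1 and 2. In p38i macrophages it was 2 with stricter gates, 2 without the top cell of each library and 3 without cells with a 4T1 marker, where p38KO macrophages had 2. Thinning changed 59 of 63 shares of cells by more than their interval. No paired analysis was possible because each group was 1 library. Sparse genes set the limit of depth: F7 had 14 to 140 counts in any myeloid gate.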
